A study of Homo sapiens with 6 samples.

Results

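CD44, the enzymes that make and cut its ligand hyaluronan, and the proteins that tie it to the actin cortex were followed in SACC-83 cells, an established human cell line labelled as salivary adenoid cystic carcinoma. The 10 genes are CD44, the hyaluronan synthases HAS2 and HAS3, the hyaluronidases HYAL2, HYAL3 and CEMIP2, the linkers EZR, RDX and MSN, and NF2, which encodes a relative of the linkers. They were picked by symbol, and all 10 were found among the 27328 loci of the deposited table. RNA sequencing gave 3 libraries of cells overexpressing circMYBL1, a circular RNA named after the gene MYBL1, and 3 libraries of cells with vector alone, which the labels also call WT. The genotype labels of the overexpression libraries run circMYBL1, circMYBL2 and circMYBL3 with the replicate number, and whether this numbering names different circles is not given. How the circle was delivered, whether the cells were pools or clones, and whether libraries of a group came from separate cultures are not stated either, so a p-value here speaks of library-to-library spread that could be technical.

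CD44 is a transmembrane glycoprotein that binds hyaluronan, a long sugar polymer of the extracellular matrix. Hyaluronan is made at the plasma membrane by the HAS enzymes and cut by hyaluronidases into fragments, and cells take up and signal through CD44. Inside the cell, ezrin, radixin and moesin (the ERM proteins, encoded by EZR, RDX and MSN) bind the CD44 tail with an amino-terminal FERM domain and F-actin with their carboxy terminus. Merlin, encoded by the tumour suppressor gene NF2, has the same FERM fold, lacks the carboxy-terminal actin site of the ERM proteins and can compete with them for CD44. CD44 is widely used as a marker of invasive and stem-like carcinoma cells, and the series title names it as a gene induced by the circle.

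Values are FPKM, in which sequenced fragments are divided by the length of the gene and the size of the library, and allow levels of different genes to be set side by side. Read depth cannot be derived from them. Of the epithelial markers, 7 of 8 were at 1 FPKM or more in every library, with summed levels of 2169 to 2686 FPKM in overexpression and 2061 to 2272 FPKM in vector libraries. Of the 8 markers of adenoid cystic carcinoma, only MYBL1 and TP63 reached 1 FPKM in every library, MYB lay between 0.688 and 1.21 FPKM, SOX10, EN1 and NTRK3 stayed under 1 FPKM, and KIT and MIA were listed at 0 throughout. The leukocyte markers PTPRC, CD3E and LYZ were also listed at 0 in all 6 libraries. MYBL1 read 359, 44.0 and 2025 FPKM in overexpression replicates 1, 2 and 3, against 9.04, 7.15 and 10.3 FPKM in vector replicates 1, 2 and 3. This gene-level value does not tell reads of the circle or its construct from those of linear MYBL1 mRNA. Libraries numbered 2 stood apart from the others in both groups, and same-numbered libraries deviated together. For the tested genes of the chosen set, the group difference is therefore given with and without replicate number as a block.

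The start regions of CD44 and EZR are shown because these are the member that differed most between the groups and the member that differed most between replicate numbers. Both sequences run 5′ to 3′ on the gene's strand, from 250 bases before to 50 bases after the RefSeq start (GRCh38.p14). Capitals mark matches, on either strand, to the SP1-type letters GGGCGG and the AP-1-type letters TGANTCA.
CD44, chr11:35138921-35139220, plus strand: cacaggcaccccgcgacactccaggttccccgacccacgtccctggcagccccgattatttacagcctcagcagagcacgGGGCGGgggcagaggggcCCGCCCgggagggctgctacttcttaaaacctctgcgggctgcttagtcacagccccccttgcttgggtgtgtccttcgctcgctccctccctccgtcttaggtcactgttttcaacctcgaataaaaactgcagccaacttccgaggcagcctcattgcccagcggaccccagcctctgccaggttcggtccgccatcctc
EZR, chr6:158818186-158818485, minus strand: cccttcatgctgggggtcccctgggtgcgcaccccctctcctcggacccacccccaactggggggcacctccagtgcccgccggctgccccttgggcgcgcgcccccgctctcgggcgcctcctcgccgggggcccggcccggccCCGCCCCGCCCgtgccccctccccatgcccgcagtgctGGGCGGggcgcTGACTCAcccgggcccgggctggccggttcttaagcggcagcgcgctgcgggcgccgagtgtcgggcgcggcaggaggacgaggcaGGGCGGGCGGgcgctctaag
The CD44 window held 2 matches to GGGCGG and the EZR window 5, of which some share bases, while 45% of the 35116 windows of this length in the RefSeq table held at least 1. TGANTCA was found once in the EZR window, in 7.71% of all windows, and not in the CD44 window. The letters TAACNG, a core of sites read by MYB proteins, occurred in neither, and in 20.8% of all windows. GC content was 63.3% for the CD44 window, with 18 CpG dinucleotides, and 80% for the EZR window, with 36.

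The 10 genes covered a wide span of levels, with the receptor and a pair of linkers far above the enzymes. Averaged over the 6 libraries, EZR stood at 250.5 FPKM, MSN at 227, CD44 at 137, RDX at 18.2, HYAL2 at 14.4, NF2 at 8.81, CEMIP2 at 7.51, HYAL3 at 5.85 and HAS3 at 2.79 FPKM. EZR, MSN and CD44 ranked 192, 215 and 359 by mean level among the 12064 genes kept for testing, which had at least 1 FPKM in at least 3 libraries. Neighbours in this order overlapped for EZR and MSN, RDX and HYAL2, NF2 and CEMIP2, and CEMIP2 and HYAL3, whereas each library had more MSN than any library had CD44, and less HAS3 than any had HYAL3. HAS2 was at the floor, listed at 0 in 4 libraries and at 0.0127 FPKM in overexpression replicate 2 and 0.0226 FPKM in vector replicate 1, so it was not tested.

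**Figure D1:**
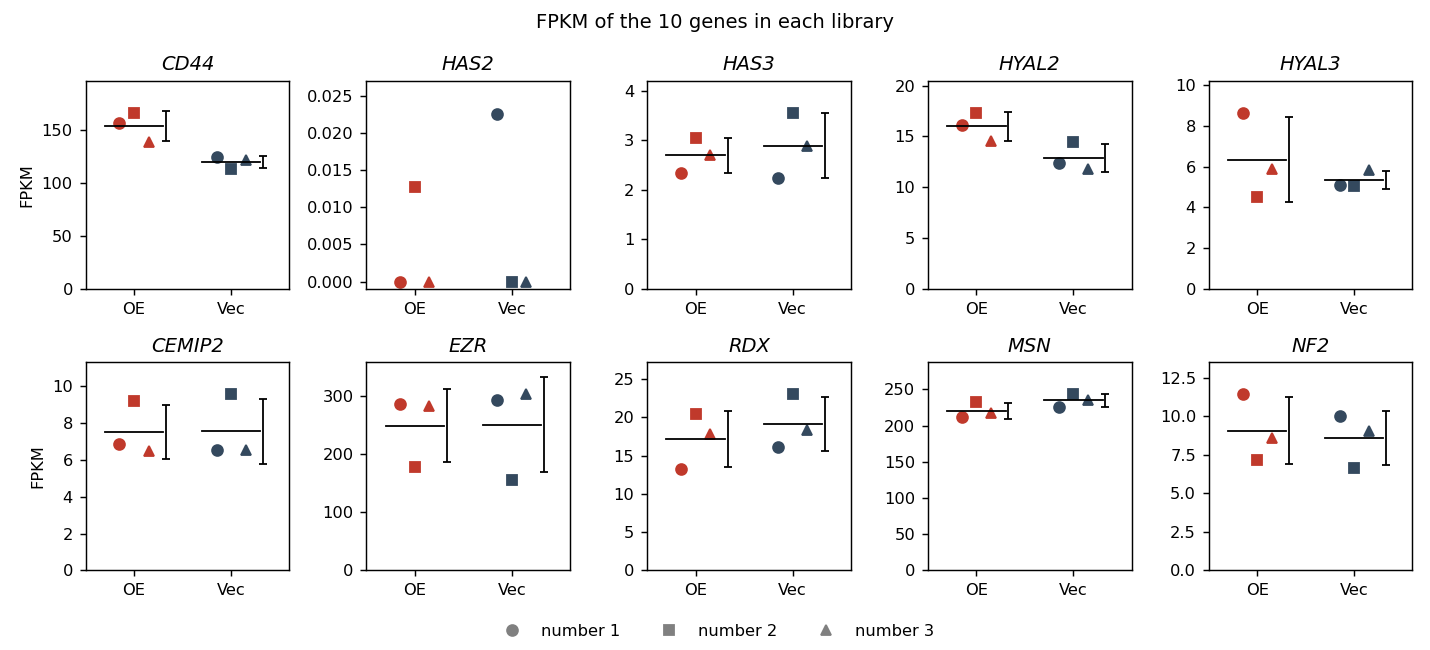
FPKM of each of the 10 genes, with the 3 overexpression libraries (OE, red) left of the 3 vector libraries (Vec, dark) and marker shape giving the replicate number; lines are means and bars SD, both left out for HAS2. CD44 and HYAL2 are the genes whose groups do not overlap, while in EZR the libraries numbered 2 (178 FPKM in OE and 156 FPKM in Vec) lie below the other 4.

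CD44 was higher in every overexpression library than in any vector library, and did not pass the test over all genes. The gene (ENSG00000026508, chromosome 11, 35138870 to 35232402, plus strand, GRCh38) read 156, 166 and 138 FPKM in overexpression replicates 1, 2 and 3, against 124, 113 and 122 FPKM in vector replicates 1, 2 and 3. The lowest overexpression library, replicate 3, was thus above the highest vector library, replicate 1. On the scale of log2(FPKM + 1) the fold change was 0.36 with a 95% interval of 0.04 to 0.67 (limma, adjusted p = 1.0, group only). With replicate number as a block the interval was 0.14 to 0.57 (limma, adjusted p = 0.445). Group ranges that do not overlap, with the overexpression side higher, were found in 2.5% of the kept genes, and the smallest p that an exact permutation test of 3 against 3 allows is 0.1. GENCODE release 29 lists 39 transcripts of CD44, 26 of them coding, and the gene value sums the standard and variant forms, so a shift between them cannot be seen.

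The size of the CD44 difference did not follow the gene-level value of MYBL1 across the pairs of same-numbered libraries. That value is not a measured dose of the circle. Overexpression over vector, CD44 stood at 1.26 in pair 1, 1.47 in pair 2 and 1.14 in pair 3, while MYBL1 stood at 39.7, 6.16 and 197 in the same pairs. The pair with the smallest MYBL1 ratio therefore had the largest CD44 ratio, and the pair with the largest MYBL1 ratio the smallest; 3 pairs give no test of this order. Without replicate 2 of both groups the CD44 log2 fold change was 0.26, and without replicate 3 of both groups it was 0.44 (limma with the block, adjusted p = 0.733 and 0.265). CD44 was not called for replicate number, with means over both groups of 140.1, 139.5 and 130.03 FPKM for numbers 1, 2 and 3 (limma F-test, adjusted p = 0.739), in a data set where 46.5% of kept genes were called for number.

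Genes whose profile was closest to that of CD44 over the 6 libraries were GMDS (Pearson r = 0.996), UBE2E1 (0.990), ADAT3 (0.987), PARD3 (0.985) and KIF1BP (0.981), out of 11165 genes compared, of which 11 reached 0.95. With 6 libraries such values are a description of these libraries. Genes picked by r with CD44 share its pattern largely because of that choice, so the likeness below is no added result. GMDS, the enzyme that makes the precursor of GDP-fucose, read 10.98, 11.7 and 9.75 FPKM in overexpression replicates 1, 2 and 3, against 9.14, 8.46 and 8.89 FPKM in vector replicates 1, 2 and 3. Like CD44 it was highest in overexpression replicate 2 and lowest in vector replicate 2, with a log2 fold change of 0.26 (limma, adjusted p = 1.0; with the block 0.643). The other 4 had the same order of pairs, with log2 fold changes of 0.08 (PARD3, a cell polarity scaffold) to 0.32 (ADAT3, a subunit of a tRNA deaminase), and none passed (limma with the block, adjusted p = 0.657 to 0.870).

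On the synthesis side, HAS3 was the synthase detected at a steady level, and its groups overlapped. HAS3 (ENSG00000103044, chromosome 16, 69105564 to 69118719, plus strand) read 2.34, 3.04 and 2.71 FPKM in overexpression replicates 1, 2 and 3, against 2.23, 3.55 and 2.88 FPKM in vector replicates 1, 2 and 3. In both groups number 2 was highest and number 1 lowest. The log2 fold change was -0.06, with an interval of -0.50 to 0.38 (-0.33 to 0.20 with the block; limma, adjusted p = 1.0 and 0.919). HAS3 shares 6.9% of its exon bases with CHTF8 on the other strand, which stood at 44.7 ± 6.997 FPKM in overexpression and 44.7 ± 18.1 FPKM in vector libraries (SD, n = 3), and without knowledge of strand in the counting, reads of the shared bases cannot be told apart. HAS1 was at or below 0.0875 FPKM in every library and HAS2 (ENSG00000170961, chromosome 8, 121612116 to 121641390, minus strand) at the floor described above.

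HYAL2, a membrane-anchored hyaluronidase that cuts long hyaluronan chains at the cell surface, was the other gene higher in every overexpression library, and it too did not pass. HYAL2 (ENSG00000068001, chromosome 3, 50317790 to 50322906, minus strand) stood at 16.2, 17.3 and 14.5 FPKM in overexpression replicates 1, 2 and 3, against 12.4, 14.4 and 11.8 FPKM in vector replicates 1, 2 and 3. The gap between the groups was small, 14.5 FPKM in the lowest overexpression library against 14.4 FPKM in the highest vector library, while the ratios within pairs were alike at 1.30, 1.20 and 1.23. The log2 fold change was 0.29, with an interval of -0.05 to 0.64 (limma, adjusted p = 1.0), and with the block the interval was 0.08 to 0.51 (adjusted p = 0.525). In pair 1 the log2 ratio of genes followed their GC content (Spearman 0.528 across 11166 genes, which are not independent replicates), with a median of 0.30 for the 1824 genes whose transcripts were over 60% GC, among them HYAL2 at 61.9%, HYAL3 at 60.7% and HAS3 at 60.6%. After a correction for GC content and length the HYAL2 fold change was 0.18 on the log2 scale (limma, adjusted p = 1.0; with the block 0.621), against 0.35 for CD44, whose transcripts had a median of 47.5% GC. The same correction moved HYAL3 from 0.18 to 0.07 and HAS3 from -0.06 to -0.17. Under library weights HYAL2 passed (log2 fold change 0.30, limma, adjusted p = 0.0480), with vector replicate 3 given a weight of 25.1 and the other 5 libraries 0.182 to 4.43.

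HYAL2 shares 11.2% of its exon bases with the neighbouring TUSC2 on the same strand, so reads there could be assigned to either gene. TUSC2 read 17.3 ± 4.26 FPKM in overexpression and 15.4 ± 2.80 FPKM in vector libraries (SD, n = 3). The summed level of HYAL2 and TUSC2 was 37.6, 30.3 and 32.1 FPKM in overexpression replicates 1, 2 and 3, against 29.03, 26.6 and 29.1 FPKM in vector replicates 1, 2 and 3. The groups did not overlap for the sum either. Since FPKM divides each gene by its own length, the sum does not settle how shared reads were assigned.

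HYAL3, a hyaluronidase-family gene next to HYAL2, stood apart in 1 pair. HYAL3 (ENSG00000186792, chromosome 3, 50292831 to 50299468, minus strand) stood at 8.65, 4.52 and 5.89 FPKM in overexpression replicates 1, 2 and 3, against 5.10, 5.05 and 5.86 FPKM in vector replicates 1, 2 and 3. Overexpression replicate 1 was above the other 5 libraries, and overexpression replicate 2 was the lowest of all. The log2 fold change of 0.18 (interval -0.35 to 0.71; limma, adjusted p = 1.0) turned to -0.04 without overexpression replicate 1. With the block its interval was -0.16 to 0.52 (limma, adjusted p = 0.809). HYAL3 shares 12.2% of its exon bases with NAA80 on the same strand, an actin acetyltransferase gene that read 5.96, 5.38 and 4.55 FPKM in overexpression replicates 1, 2 and 3, against 3.34, 4.07 and 3.01 FPKM in vector replicates 1, 2 and 3. NAA80 thus had groups that did not overlap, with a log2 fold change of 0.49 (limma, adjusted p = 1.0; with the block 0.290), and how reads of the shared exons were divided is not given. The summed level of HYAL3 and NAA80 was 14.6, 9.90 and 10.4 FPKM in overexpression replicates 1, 2 and 3, against 8.43, 9.12 and 8.87 FPKM in vector replicates 1, 2 and 3. The groups of the sum did not overlap, which was already so for NAA80 alone and not for HYAL3 alone. FPKM divides each gene by its own length, so the sum does not settle how shared reads were divided. Groups that do not overlap, with overexpression higher, were found in 2.5% of all kept genes. For HAS3 and CHTF8 the groups of the sum overlapped.

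CEMIP2, a cell-surface protein with hyaluronidase activity described in mouse and disputed for the human protein, had overlapping groups and differed between replicate numbers. CEMIP2 (ENSG00000135048, chromosome 9, 71683366 to 71816690, minus strand) stood at 6.83, 9.16 and 6.46 FPKM in overexpression replicates 1, 2 and 3, against 6.55, 9.55 and 6.50 FPKM in vector replicates 1, 2 and 3. Both libraries numbered 2 were above the other 4 (limma F-test for number, adjusted p = 0.0177). That call ended under quantile scaling (limma, adjusted p = 0.0641), trimmed-mean factors (0.0915) and no filter on low values (0.0621), and without vector replicate 2 (0.250), overexpression replicate 2 (0.117) or overexpression replicate 3 (0.0522). The group difference was -0.004 on the log2 scale, with an interval of -0.49 to 0.48 (-0.23 to 0.22 with the block; limma, adjusted p = 1.0 and 0.994).

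**Figure D2:**
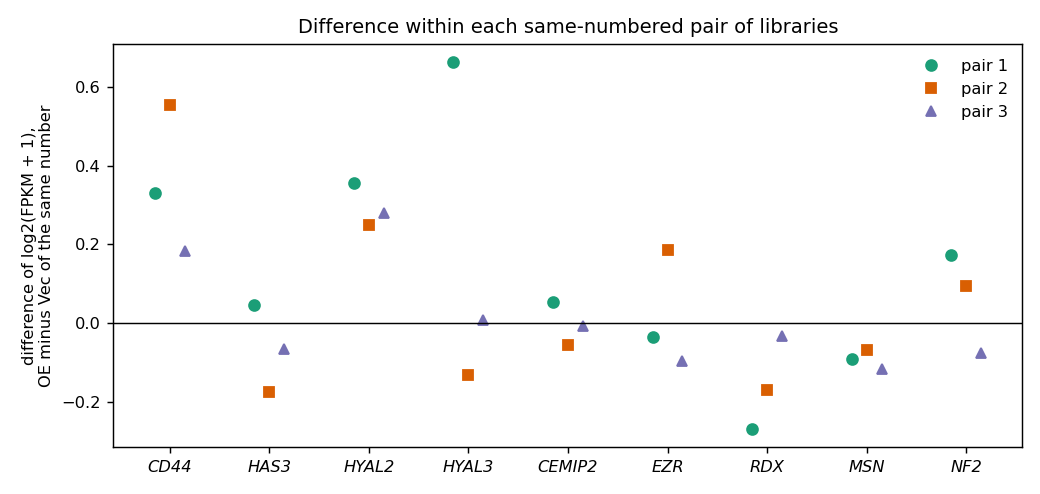
Difference of log2(FPKM + 1), overexpression minus vector, in each of the 3 same-numbered pairs of libraries for the 9 tested genes. CD44 (0.33, 0.55 and 0.18) and HYAL2 (0.36, 0.25 and 0.28) lie above 0 in all 3 pairs and RDX and MSN below 0 in all 3, while the HYAL3 mean comes from pair 1 (0.66).

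Among the linkers, EZR and MSN were the main forms, and which of them led followed the replicate number in both groups. EZR (ENSG00000092820, chromosome 6, 158765741 to 158819412, minus strand), the linker typical of epithelial microvilli, read 287, 178 and 284 FPKM in overexpression replicates 1, 2 and 3, against 294, 156 and 304 FPKM in vector replicates 1, 2 and 3. The libraries numbered 2 had the lowest EZR in both groups, at 0.571 of the mean of the other numbers, and the number was called (limma F-test, adjusted p = 0.000495). MSN (ENSG00000147065, chromosome X, 65588377 to 65741931, plus strand), the form prominent in leukocytes and endothelium, read 211, 232 and 217 FPKM in overexpression replicates 1, 2 and 3, against 225, 243 and 235 FPKM in vector replicates 1, 2 and 3. It was not called for number (limma F-test, adjusted p = 0.584; adjusted p = 0.0196 under quantile scaling). The ratio of EZR to MSN was therefore 1.36, 0.765 and 1.31 in overexpression replicates 1, 2 and 3, against 1.31, 0.642 and 1.29 in vector replicates 1, 2 and 3.

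Between the groups neither main linker passed. EZR gave a log2 fold change of 0.02 with a wide interval of -0.73 to 0.77, which narrowed to -0.19 to 0.22 with the block (limma, adjusted p = 1.0 and 0.967), and its sign turned under other scalings. MSN gave -0.09, with an interval of -0.39 to 0.20 (-0.28 to 0.10 with the block; limma, adjusted p = 1.0 and 0.827). MSN was lower in 3 of 3 pairs, with ratios of 0.938, 0.954 and 0.922, where 11.9% of all kept genes were lower in 3 of 3 pairs.

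RDX, the least abundant linker, and the related NF2 also moved with the replicate number, and in opposite directions. RDX (ENSG00000137710, chromosome 11, 109864295 to 110296722, minus strand) stood at 13.3, 20.4 and 17.8 FPKM in overexpression replicates 1, 2 and 3, against 16.2, 23.01 and 18.3 FPKM in vector replicates 1, 2 and 3. NF2 (ENSG00000186575, chromosome 22, 29603556 to 29698598, plus strand) read 11.4, 7.16 and 8.55 FPKM in overexpression replicates 1, 2 and 3, against 10.01, 6.64 and 9.06 FPKM in vector replicates 1, 2 and 3. In both groups RDX was highest and NF2 lowest in number 2, while RDX was lowest and NF2 highest in number 1 (limma F-tests for number, adjusted p = 0.0136 for RDX and 0.0132 for NF2). Both calls ended with no filter on low values (limma, adjusted p = 0.0539 for RDX and 0.0640 for NF2) and without vector replicate 2 (0.0678 and 0.0888), that of RDX also under trimmed-mean factors (0.0850) and that of NF2 also without overexpression replicate 2 (0.0507). Between the groups RDX gave a log2 fold change of -0.16, with an interval of -0.64 to 0.33 (-0.37 to 0.06 with the block). RDX was lower in 3 of 3 pairs at ratios of 0.820, 0.885 and 0.976, as were 11.9% of all kept genes. NF2 gave 0.06, with an interval of -0.45 to 0.58 (-0.17 to 0.29 with the block), and neither gene passed (limma with the block, adjusted p = 0.781 and 0.901).

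**Figure D3:**
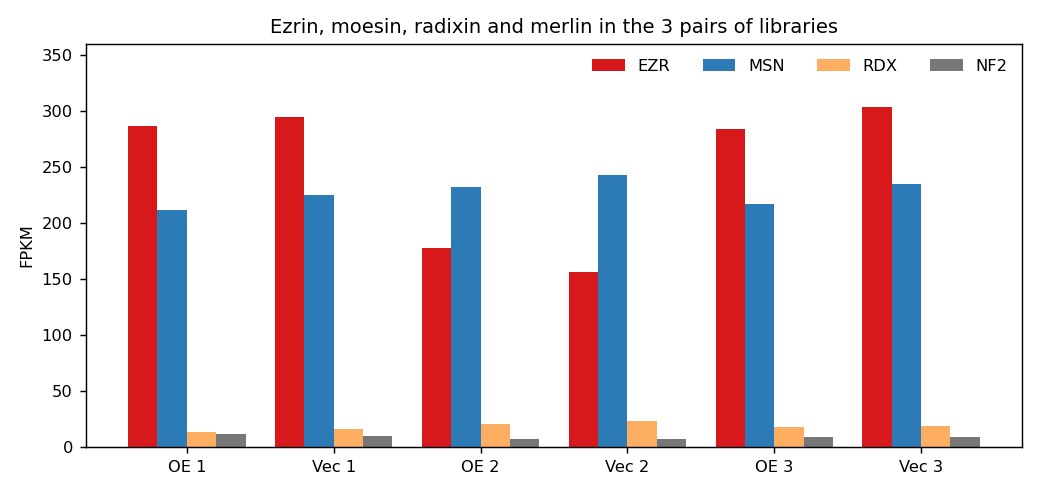
FPKM of EZR, MSN, RDX and NF2 as bars in each library, with the overexpression library (OE) left of the vector library (Vec) of the same number. EZR exceeds MSN in the 4 libraries numbered 1 and 3, and MSN exceeds EZR in both libraries numbered 2 (232 against 178 FPKM in OE 2 and 243 against 156 FPKM in Vec 2).

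The summed level of the 3 ERM genes was 512, 430 and 519 FPKM in overexpression replicates 1, 2 and 3, against 536, 422 and 557 FPKM in vector replicates 1, 2 and 3. CD44 per summed ERM level was 0.305, 0.386 and 0.267 in overexpression replicates 1, 2 and 3, against 0.231, 0.267 and 0.219 in vector replicates 1, 2 and 3. The ratio was higher in the overexpression library of each pair, and the groups overlapped, with vector replicate 2 just above overexpression replicate 3.

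Of the 9 tested genes, 4 were called for replicate number (EZR, NF2, RDX and CEMIP2), a share of 44.4% against 46.5% of all kept genes, so this share is near the background. Markers of epithelial cells did not move one way with the same number. KRT5 stood at 347 and 412 FPKM in the number 2 libraries of overexpression and vector cells and at 94.9 to 142 FPKM in the other 4, and TP63, a basal epithelial factor, at 25.1 and 33.7 FPKM against 11.7 to 15.3 FPKM. KRT7 was lower, at 304 and 234 FPKM in the number 2 libraries of overexpression and vector cells and at 428 to 679 FPKM in the other 4. KRT8, KRT18 and EPCAM, at 0.832, 0.889 and 0.956 of the mean of the other numbers, were not called for number (limma F-tests, adjusted p = 0.0887, 0.367 and 0.798). What part such differences have in the levels of EZR, RDX, NF2 and CEMIP2 was not tested. In bulk samples, a change in the share of cells of a kind and a change of RNA per cell cannot be told apart. Relative to the other numbers, EZR and NF2 were lower and RDX and CEMIP2 higher in number 2 under FPKM, TPM, trimmed-mean factors and quantile scaling, with log2 differences of -0.98 to -0.63 for EZR, -0.59 to -0.40 for NF2, 0.22 to 0.48 for RDX and 0.29 to 0.55 for CEMIP2. The median of all kept genes was 0.07 on this scale with FPKM and -0.08 with trimmed-mean factors, a shift of over 0.1 between scalings. CD44 and MSN had no direction that held, at -0.15 to 0.18 and -0.08 to 0.31.

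Over all 12064 kept genes the group-only fit called 0 (0%) at an adjusted p under 0.05, with 65 (0.539%) at an unadjusted p under 0.05, and the block fit called 12 (0.0995%), with 868 (7.19%) at an unadjusted p under 0.05 (limma). MYBL1, at a log2 fold change of 5.04, was not called in the group-only fit (limma, unadjusted p = 0.00438). It was called with the block (limma, adjusted p = 0.0225). A gene not called in the group-only fit is therefore not shown to be unchanged. None of the 9 tested genes was called in either fit. CD44 had an unadjusted p of 0.0328 and 0.00472 in the fits without and with the block, and HYAL2 0.0800 and 0.0113 (limma). The series title names CD44 and may rest on these libraries, and the genes were chosen with earlier results known, so these values are a description. The median log2 fold change was 0.02 over the 9 genes and 0.03 over all kept genes, and 5 of the 9 were higher on average, where 58.1% of all kept genes were. CD44 and HYAL2 were higher in 3 of 3 pairs, a count of 2 of 9 where 16.5% of all kept genes were. RDX and MSN were lower in 3 of 3, where 11.9% of all kept genes were.

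**Figure D4:**
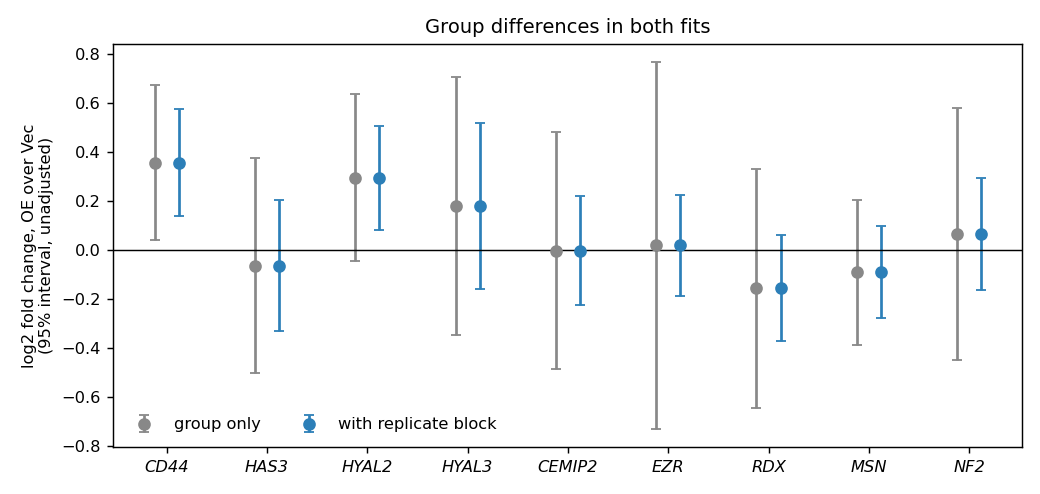
Log2 fold change, overexpression over vector, of the 9 tested genes with unadjusted 95% intervals from the group-only fit (grey) and the fit with the replicate block (blue). CD44 has both intervals above 0, HYAL2 the blue one alone (0.08 to 0.51), and the blocked interval of EZR (-0.19 to 0.22) is far narrower than the group-only one.

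Genes around the 10 were followed in 8 lists of 95 distinct symbols, of which 91 were in the table and 60 were kept. The absent symbols NHERF1, NHERF2, CD43 and EBP50 are other names of SLC9A3R1, SLC9A3R2 and SPN, which were in the table. None of the 60 passed in either fit (limma), and their median log2 fold change was 0.01. On average 33 were higher and 27 lower, where 58.1% of all kept genes were higher. Genes that supply the sugar precursors of hyaluronan showed no shared direction, with 5 of 8 higher and 3 lower. UAP1, which makes UDP-N-acetylglucosamine, read 92.4, 39.2 and 69.0 FPKM in overexpression replicates 1, 2 and 3, against 71.2, 27.4 and 64.0 FPKM in vector replicates 1, 2 and 3. It was higher in each pair, as were 16.5% of all kept genes, although the groups overlapped (log2 fold change 0.33, limma with the block, adjusted p = 0.514). UGP2, which makes UDP-glucose, gave 0.02, HK2, a hexokinase, 0.21 and GNPNAT1, an acetyltransferase of the same route, -0.08.

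Of the lysosomal enzymes that finish the breakdown of hyaluronan fragments, GUSB gave a log2 fold change of 0.02 and HEXA 0.33, and neither passed. HEXA read 14.4, 33.3 and 16.1 FPKM in overexpression replicates 1, 2 and 3, against 11.8, 21.3 and 15.1 FPKM in vector replicates 1, 2 and 3 (limma with the block, adjusted p = 0.607). The number 2 library was highest in both groups, and the groups overlapped. HYAL1, HYAL4, SPAM1 and CEMIP did not reach the level needed for testing.

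Of the 20 hyaluronan receptors and binding proteins besides CD44, 4 were kept. HMMR, a receptor also linked to the mitotic spindle, read 15.4, 15.7 and 17.7 FPKM in overexpression replicates 1, 2 and 3, against 17.6, 14.9 and 17.01 FPKM in vector replicates 1, 2 and 3 (log2 fold change -0.02). It had the highest level of the 4, and its groups overlapped. HABP4, HAPLN3 and TLR4 gave 0.06, -0.08 and 0.23, and the endothelial receptors LYVE1, STAB1 and STAB2 were not kept.

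Membrane partners and scaffolds of the ERM proteins split into 5 higher and 3 lower, where 58.1% of all kept genes were higher. PODXL, a sialomucin that binds ezrin, read 98.7, 211 and 117 FPKM in overexpression replicates 1, 2 and 3, against 97.3, 203 and 123 FPKM in vector replicates 1, 2 and 3, so the number 2 libraries were highest in PODXL and lowest in EZR. CLIC4, a chloride channel family protein, gave 0.01, SLC9A3R1, the scaffold known as NHERF1 or EBP50, -0.13, and PDPN, a sialomucin anchored by ERM proteins, 0.12 on the log2 scale. Of the 13 kept kinases, phosphatases and GTPase switches of the ERM proteins, 5 were higher and 8 lower, against the same 58.1%. STK10, a kinase that phosphorylates ERM proteins, was named after its values were seen. It was the one whose groups did not overlap, where 2.5% of all kept genes were higher without overlap. STK10 read 11.4, 11.9 and 10.6 FPKM in overexpression replicates 1, 2 and 3, against 9.34, 9.65 and 10.2 FPKM in vector replicates 1, 2 and 3. The log2 fold change was 0.20, with a group-only interval of -0.10 to 0.50 (limma with the block, adjusted p = 0.729). The GTPase gene RHOA gave 0.003, the GTPase inhibitor ARHGDIA 0.08, and the myosin phosphatase subunits PPP1CB and PPP1R12A -0.01 and -0.04.

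Proteases that cleave CD44 gave log2 fold changes of 0.01 for MMP14, a membrane-bound metalloprotease, and -0.11 for ADAM17, and the gamma-secretase subunits APH1A and NCSTN gave 0.04 and 0.09. MMP14 stood at 123 and 129 FPKM in the number 2 libraries of overexpression and vector cells and at 61.1 to 69.1 FPKM in the other 4. Of the 11 RNA-binding proteins that shape CD44 exon choice, 3 were higher and 8 lower, where 58.1% of all kept genes were higher. Of these 11, 9 were called for replicate number, where 46.5% of all kept genes were. YBX1 read 699, 400 and 647 FPKM in overexpression replicates 1, 2 and 3, against 753, 371 and 664 FPKM in vector replicates 1, 2 and 3 (log2 fold change -0.01). HNRNPA1, HNRNPM and SRSF1, general splicing factors, gave -0.03, 0.11 and -0.10. FN1, a matrix ligand, and the partners CD9, EGFR and MET gave 0.03, 0.09, 0.01 and -0.09. LGALS9, a galectin that binds CD44, was named after its values were seen, at 1.55, 4.02 and 1.30 FPKM in overexpression replicates 1, 2 and 3, against 0.525, 2.62 and 0.557 FPKM in vector replicates 1, 2 and 3. It was higher in 3 of 3 pairs, where 16.5% of all kept genes were, although the groups overlapped. Vector replicates 1 and 3 were under 1 FPKM. The log2 fold change was 0.59, with an interval of -0.44 to 1.63 in the group-only fit. With the block the interval was 0.29 to 0.90 (limma, adjusted p = 0.281).

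**Figure D5:**
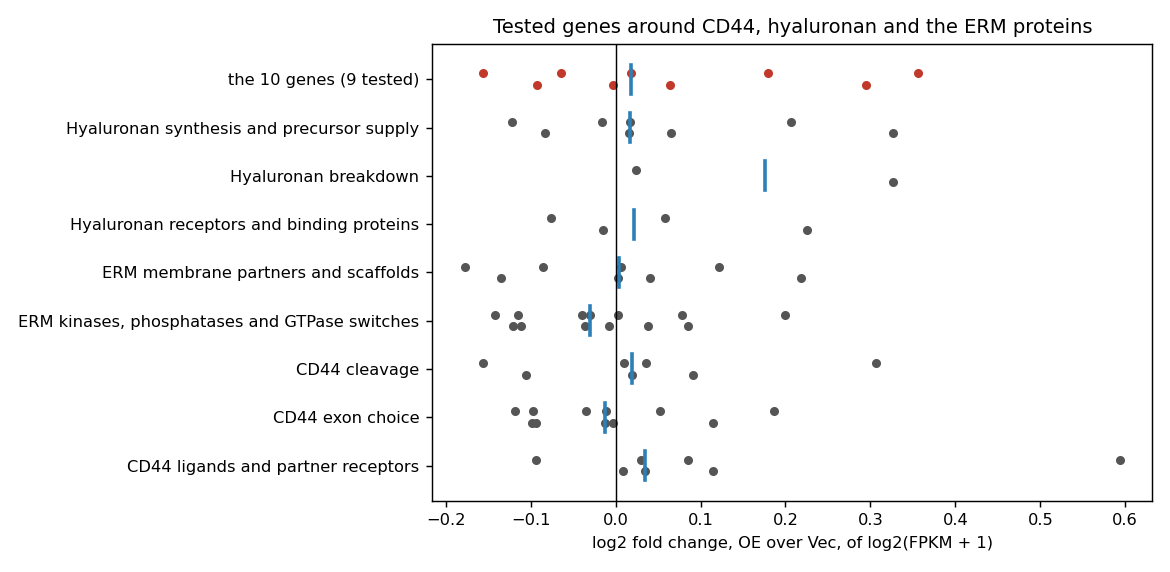
Log2 fold change, overexpression over vector, of the 9 tested genes (red) and of the kept genes in each of the 8 surrounding lists (grey), with list medians as blue lines; vertical offsets only separate points. List medians lie between -0.03 and 0.18, and CD44 at 0.36 is the rightmost of the red points.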

How the data were processed

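RNA sequencing of SACC-83 cells gave 3 overexpression and 3 vector libraries, grouped by sample titles. The deposited table holds FPKM computed by the authors; per the submitters' processing notes HISAT2 and GRCh38 were used, while no counting tool, annotation or version is given in the sources used here. No whole-read steps were seen, so depth is unknown. FPKM depends on library totals, so abundant genes shift the others.

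The 12064 genes that reached 1 FPKM in 3 or more libraries were fitted as log2(FPKM + 1) with limma 3.58.1 in R 4.3.3 (trend, 2-sided, Benjamini-Hochberg over all kept genes, threshold 0.05), with group as the only term. This scale understates changes of low genes. Replicate number was tested by an F-test in a fit with group and number. The fit was checked on simulated data. The labels do not say what numbers stand for. Deviations from the group mean of same-numbered libraries had correlations of 0.725, 0.881 and 0.529, each the best match of its library and above the limit of 0.1, so the numbers were taken as pairs. Differently numbered libraries lay at -0.818 to 0.424, and with number 2 apart, numbers 1 and 3 correlate however matched. Positions, exon overlaps and transcript GC come from GENCODE release 29. Sequences are RefSeq's; 6 of the 10 genes had a single window.

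The genes and lists were chosen with earlier results of these data known. Named genes were the 10, MYBL1, up to 4 kept genes of highest mean FPKM per list and the 5 genes closest to CD44 by Pearson r; others are said to be chosen after their values were seen, or are given as context. Alternatives were other pseudocounts, filters, scalings, no trend, library weights, the block, leaving out libraries, and, added after seeing the data, a loess correction for GC content and length. A gene of the fixed lists is not reported here.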

Additional observations from a re-analysis of the deposited data

How the results depend on the processing

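The CD44 log2 fold change stayed positive and short of the threshold under all 11 alternatives other than leaving out libraries, at 0.21 to 0.36 (lowest with library weights, limma, adjusted p = 0.0991), and at 0.30 to 0.43 without single libraries. Its group-only interval did not always stay above 0. The unadjusted p was 0.0855 under trimmed-mean factors and 0.0335 to 0.122 without single libraries (limma), under 0.05 only without overexpression replicate 3. The replicate block called none of the 9 genes, and calls over all genes numbered 12 with it against 0 without, 14, 148 and 22 with the block and without replicate 1, 2 or 3 of both groups, 2 with the block and GC and length correction, 346 with library weights, and 0 to 1 without single libraries. Library weights, whose estimation stopped before its tolerance was reached, rest mainly on vector replicate 3.

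Signs turned for EZR under TPM (-0.00357), trimmed-mean factors (-0.0034), quantile scaling (-0.0421), library weights (-0.123) and the block without replicate 2 of both groups (-0.0654), for CEMIP2 under library weights (0.0168) and that same block setting (0.0221), for NF2 under library weights (-0.0613), and for HYAL3 with the block and without replicate 1 of both groups (-0.0626). Without single libraries the group-only fold changes ran from -0.19 to 0.0565 for HAS3, -0.0361 to 0.367 for HYAL3 and -0.14 to 0.16 for CEMIP2. For EZR they ran from -0.29 to 0.25, for RDX from -0.28 to 0.00793 and for NF2 from -0.10 to 0.20. Each range holds both signs, and leaving out a single library also leaves the replicate numbers unequal between the groups. With the block and without any one number of both groups, HAS3 (-0.12 to -0.0095), RDX (-0.22 to -0.10) and NF2 (0.0099 to 0.13) kept their signs. The causes were not tested.

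For replicate number, 5605 genes were called, 3389 with no filter on low values, and 3663 to 6174 without single libraries, lowest without vector replicate 2. Of the 9 genes 4 were called, against 1 with no filter (EZR), 2 with trimmed-mean factors (EZR and NF2), 5 under quantile scaling, where CEMIP2 was lost and HYAL3 (limma, adjusted p = 0.0375) and MSN (0.0196) were gained, and 1 to 5 without single libraries, with EZR alone left without vector replicate 2. EZR was called under every alternative run (limma, adjusted p = 8.32e-07 to 0.0292). Unknown depth leaves HAS2 and HAS3 without a counting error.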
